A study of Mus musculus with 4 samples.

Results

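The genes described are 34 mouse genes of glycolysis and of the response to hypoxia-inducible factor (HIF), 20 of glycolysis and 14 of the HIF system, taken by symbol from a table of 53139 loci. Each symbol matched 1 locus, and 32 of the 34 had been tested by the authors, who tested 12648 loci in all. RNA was sequenced from mouse macrophages that came from MCA fibrosarcoma (9609) tumours, labelled 9609 parent, wild type (WT) in genotype, and treated in culture with exosomes, small vesicles that cells release. One group of 2 samples received MEK1-low exosomes, which the labels also call GFP, and the other group of 2 samples received MEK1-hi exosomes. MEK1 is the kinase upstream of ERK, and the comparison asks how recipient macrophages respond to exosomes that differ in it. MEK1 content and the GFP label cannot be told apart here, and no untreated macrophages are among the 4 samples. Strain, age, dose and time of exposure are not given in the sources used here, nor are the cells that released the exosomes or the number of cultures or animals behind the samples.

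Glycolysis breaks glucose down to pyruvate in the cytosol, and lactate dehydrogenase can then turn pyruvate into lactate, which is exported. HIF is a pair of an oxygen-regulated alpha subunit (HIF-1 alpha from Hif1a or HIF-2 alpha from Epas1) and the constant partner ARNT. When oxygen is present, prolyl hydroxylases of the EGLN family mark the alpha subunit, and the VHL protein leads it to degradation. When it is not marked, HIF raises transcription of glucose transporters, most glycolytic enzymes and other target genes, through the DNA core ACGTG or GCGTG. Macrophages activated by bacterial products are known for raised glycolysis that depends in part on HIF-1 alpha. Transcript levels do not measure HIF protein, which is controlled mainly by its stability, nor the flux of glucose.

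The HIF core was looked for in the promoters of these genes, because it is the sequence that joins the glycolysis genes to the HIF system. Windows of 250 bases before each start were taken from RefSeq (GRCm38.p6), where 31 of the 34 genes matched and Epas1, Bnip3l and Ndrg1 did not. ACGTG on either strand, read as ACGTG or as CACGT on the strand of the gene, was in a window of 18 of the 31 genes (58.1%), against 18.5% of all 27025 genes with a window and 25.7% of the 8769 of them that were tested at 1 FPKM or more. Counted by window, since a gene can have several starts, it was in 21 of the 43 windows of these genes (48.8%) and in 16.6% of all windows. GCGTG on either strand was in windows of 19 of the 31 (61.3%), against 30.9% of all genes and 50.7% of the tested ones. The palindrome CACGTG, which contains ACGTG and is also bound by other factor families, was in windows of 5 of the 31 (16.1%), against 6.86% of all genes and 10.3% of the tested ones. The genes were chosen for glycolysis and the HIF system, so these shares describe the choice of genes and not the response to exosomes. A match is only a run of letters and does not show that HIF bound there. The windows of 4 genes are shown, those of Slc2a1, Hk2 and Hk3 because they had the lowest p-values among the glycolysis genes, and that of Pgk1 as a well-known HIF target with 2 cores. Capitals mark ACGTG or CACGT, and each run ends at the base before the start of transcription.
Slc2a1, chr4:119108495-119108744, + strand: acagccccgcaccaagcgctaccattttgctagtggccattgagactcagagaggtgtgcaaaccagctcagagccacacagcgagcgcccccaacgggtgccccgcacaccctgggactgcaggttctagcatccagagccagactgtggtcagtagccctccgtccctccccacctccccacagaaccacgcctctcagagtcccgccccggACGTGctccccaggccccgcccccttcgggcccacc
Hk2, chr6:82774455-82774704, - strand: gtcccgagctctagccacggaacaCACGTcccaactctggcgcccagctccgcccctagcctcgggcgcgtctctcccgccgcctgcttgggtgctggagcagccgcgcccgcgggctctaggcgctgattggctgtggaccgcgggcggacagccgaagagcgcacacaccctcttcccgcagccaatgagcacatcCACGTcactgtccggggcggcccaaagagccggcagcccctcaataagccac
Hk3, chr13:55021386-55021635, - strand: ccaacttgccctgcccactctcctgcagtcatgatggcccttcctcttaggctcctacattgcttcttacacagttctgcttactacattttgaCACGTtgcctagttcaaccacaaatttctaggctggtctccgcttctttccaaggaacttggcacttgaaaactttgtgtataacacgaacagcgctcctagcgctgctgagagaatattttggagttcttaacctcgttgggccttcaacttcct
Pgk1, chrX:106186850-106187099, + strand: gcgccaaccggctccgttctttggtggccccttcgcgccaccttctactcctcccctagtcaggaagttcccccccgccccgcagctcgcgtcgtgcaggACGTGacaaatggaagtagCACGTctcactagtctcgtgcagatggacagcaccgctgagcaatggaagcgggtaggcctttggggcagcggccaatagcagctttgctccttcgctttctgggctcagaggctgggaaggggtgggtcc

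In the Slc2a1 window the ACGTG core begins 36 bases before the RefSeq start, and by the GENCODE start it overlaps the start. That window also holds GCGTG, read as CACGC. In the Hk3 window the core begins 156 bases before the start. Hk2 has cores that begin 226 and 52 bases before the start, and Pgk1 has them at 150 and 131 bases.

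All levels are the authors' group values in FPKM (fragments per kilobase of transcript, scaled for library size), with a single value for each group and therefore no spread between samples. Every p-value and q-value is from the Cuffdiff test in the authors' deposited table. A gene was called where it had been tested and its q-value was under 0.05. Log2 fold changes are MEK1-hi over MEK1-low after adding 1 FPKM to each value, so the change of low genes is understated.

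The cells carried macrophage transcripts. All 14 macrophage markers stood at 47.5 FPKM or more in both groups, and summed to 24492 FPKM under MEK1-low and 25422 FPKM under MEK1-hi exosomes. Of those sums Lyz2, lysozyme, held 12303 and 13148 FPKM. Cd14, a co-receptor for lipopolysaccharide, was the 1 macrophage marker called, and fell from 213 to 136 FPKM (per the authors' deposited table, q = 0.00349). The 12 fibroblast and fibrosarcoma markers summed to 16.2 and 15.4 FPKM, the 10 neutrophil markers to 73.5 and 53.6 FPKM, the 8 T cell markers to 7.18 and 5.11 FPKM, the 5 endothelial markers to 4.52 and 3.20 FPKM and the 6 erythroid markers to 2.59 and 1.90 FPKM. Of the T cell sums Cd4 held 6.52 and 4.52 FPKM, and it was the 1 T cell marker tested. In such bulk samples, fewer cells of a type and less RNA per cell cannot be told apart.

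Epas1 was the 1 of 32 tested glycolysis and HIF genes that was called, in the direction of higher levels under MEK1-hi exosomes. Across all loci tested, 2.44% were called in either direction and 0.751% were called higher, so 1 of 32 is near the share among all loci. Values lay within 1.2-fold of each other for 23 of the 32 genes (71.9%), against 68.7% of all tested loci. They were lower under MEK1-hi exosomes for 20 of the 32 and higher for 12, against 49.8% lower and 50.2% higher among all tested loci. When each group was scaled to the same FPKM total, 19 of the 32 were lower, against 42.1% of all loci. At an unadjusted p under 0.05, Epas1, Hk2 and Hk3 were higher and Slc2a1 was lower, where all tested loci gave 3.53% higher and 5.12% lower. The median log2 fold change of the 31 genes tested at 1 FPKM or more was -0.08, and that of all 11804 such loci was 0.00.

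**Figure D1:**
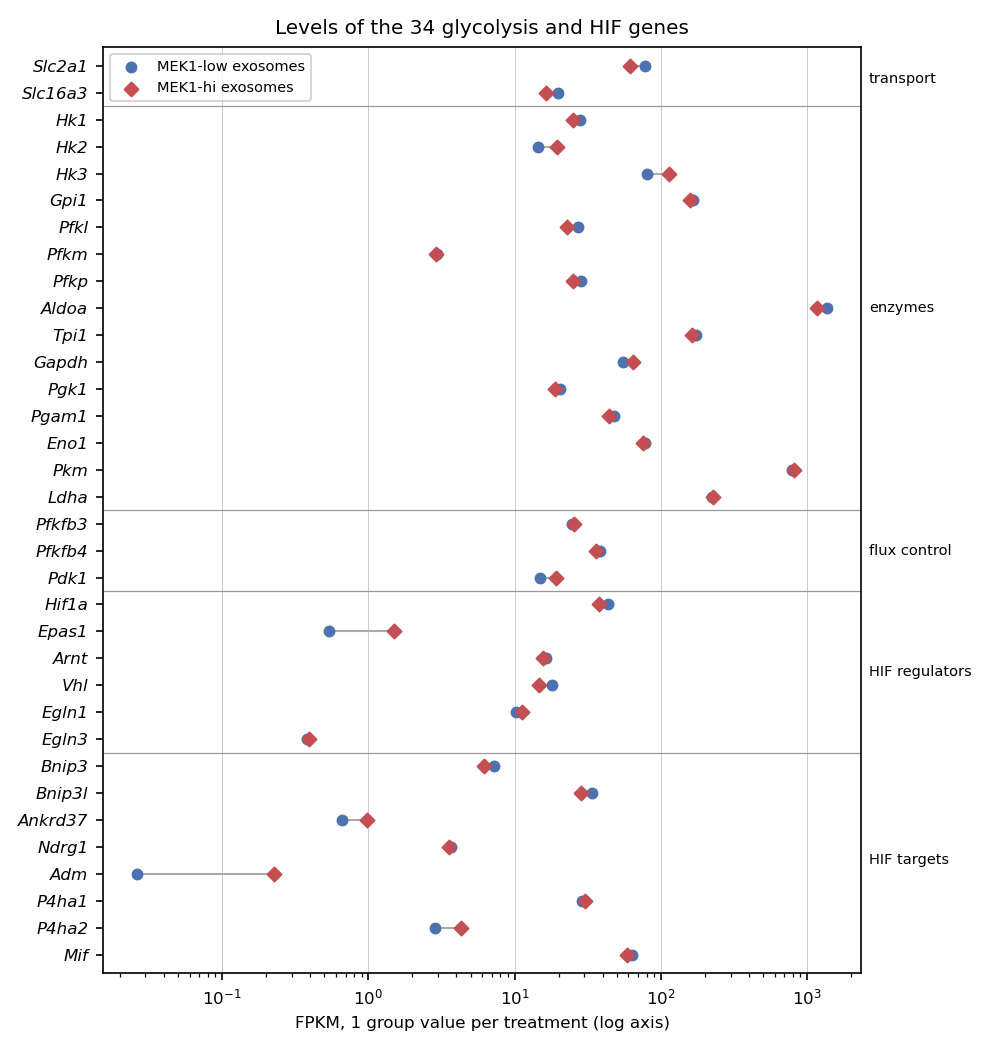
Level of each of the 34 genes in FPKM on a log axis, with a circle for the MEK1-low group value and a diamond for the MEK1-hi group value, in the order of the pathway. Levels run from 0.0264 FPKM (Adm, MEK1-low) to 1362 FPKM (Aldoa, MEK1-low), and the marks of most genes overlap or nearly do.

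Glucose entry was represented by Slc2a1, which encodes GLUT1, the main glucose transporter of many cells (chromosome 4, 119108711 to 119137983, mm10). Slc2a1 stood at 77.9 FPKM under MEK1-low and 61.4 FPKM under MEK1-hi exosomes, which gives a log2 fold change of -0.34. Its p-value was 0.0239 and its q-value 0.380 in the authors' deposited table, so it was not called. Slc16a3, which encodes MCT4, the exporter of lactate at the other end of the pathway, stood at 19.7 and 16.3 FPKM (per the authors' deposited table, q = 0.999). Both transporter genes thus had lower values under MEK1-hi exosomes, and neither passed the test.

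Hexokinases trap glucose in the cell as glucose 6-phosphate, and their genes held the 2 highest log2 fold changes among the glycolysis genes. Hk3, an isoform typical of myeloid cells (chromosome 13, 55005985 to 55021385, mm10), stood at 80.8 FPKM under MEK1-low and 114 FPKM under MEK1-hi exosomes. The ratio was 1.41, the log2 fold change 0.49, the p-value 0.00185 and the q-value 0.0670 in the authors' deposited table, so it lay above the threshold and was not called. At a q under 0.10, which 3.11% of tested loci met, Hk3 would be called beside Epas1. Among all tested loci of at least 1 FPKM, 7.74% had a larger absolute log2 fold change. Hk2, an inducible isoform bound to mitochondria (chromosome 6, 82725025 to 82774454, mm10), stood at 14.4 and 19.7 FPKM (per the authors' deposited table, p = 0.0181, q = 0.321). Hk1, the broadly expressed isoform, had the opposite order, 28.1 under MEK1-low and 25.2 FPKM under MEK1-hi exosomes, and did not pass either (per the authors' deposited table, q = 0.999). The 3 genes summed to 123 FPKM under MEK1-low and 158 FPKM under MEK1-hi exosomes. Hk3 made up 65.5% of that sum under MEK1-low and 71.7% under MEK1-hi exosomes, while Hk1 made up 22.8% and 15.9%. Neutrophils are known to express Hk3 as well. Of the 10 neutrophil markers, S100a9, Ly6g, Mpo, Elane, Ngp and Retnlg were listed at 0 in both groups. Camp stood at 0.112 and 0.0606 FPKM and Cxcr2 at 0.0723 and 0.0947 FPKM. Csf3r had 37.8 FPKM under MEK1-low and 30.8 FPKM under MEK1-hi exosomes, and S100a8 had 35.5 FPKM and then 22.6 FPKM. Only Csf3r and S100a8 were tested, and neither was called (per the authors' deposited table, p = 0.0810 and 0.00405, q = 0.722 and 0.118). The part of neutrophils in the Hk3 value was not tested.

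The steps from glucose 6-phosphate to the split of the sugar had lower values under MEK1-hi exosomes, without a call, Pfkm excepted under other scalings. Gpi1, the isomerase, stood at 167 and 157 FPKM. Phosphofructokinase, the committed step, was carried by Pfkp (28.3 and 25.2 FPKM) and Pfkl (27.1 and 22.9 FPKM) in nearly equal parts. Pfkm, the muscle isoform, stood at 2.93 and 2.89 FPKM in a locus joined with Gm26513, and became the higher of the pair under MEK1-hi exosomes when groups were scaled to the same FPKM total or by the upper quartile. The shares of the 3 phosphofructokinase genes in their sum moved by at most 1.49 percentage points. Aldoa, the aldolase that splits the sugar and the most abundant of the 34 genes, stood at 1362 and 1161 FPKM (per the authors' deposited table, p = 0.147, q = 0.895). Tpi1, which interconverts the products, stood at 174 and 164 FPKM.

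In the later steps of the pathway, values were higher for Gapdh, Pkm and Ldha and lower for Pgk1, Pgam1 and Eno1, again without a call. Gapdh, the dehydrogenase step, stood at 55.4 FPKM under MEK1-low and 64.6 FPKM under MEK1-hi exosomes, Pgk1, the first ATP-forming kinase, at 20.5 and 18.9 FPKM, and Pgam1, the mutase, at 47.8 and 44.3 FPKM. Eno1, the enolase, stood at 78.5 and 76.1 FPKM. Pkm, pyruvate kinase, in a locus joined with Gm49759, stood at 786 and 808 FPKM, and Ldha, the lactate dehydrogenase subunit of glycolytic cells, at 225 and 227 FPKM. The q-values of these 6 genes were all 0.999 in the authors' deposited table. Over the 15 enzyme genes, 10 values were lower and 5 higher, against 49.8% lower and 50.2% higher among all tested loci. Their median log2 fold change was -0.08. The summed level of the 15 genes was 3097 and 2931 FPKM, a log2 ratio of -0.08. Without Aldoa, which has the highest value, that log2 ratio was 0.03.

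Genes that steer the flux showed no call. Pfkfb3 and Pfkfb4, bifunctional enzymes that make the activator of phosphofructokinase, had levels of 24.8 and 25.5 FPKM (Pfkfb3) and of 38.3 and 36.3 FPKM (Pfkfb4). With Pfkfb1 and Pfkfb2 added, the family summed to 69.0 FPKM in each group. Pdk1, a kinase that shuts pyruvate dehydrogenase and so keeps pyruvate out of mitochondria, stood at 15.0 FPKM under MEK1-low and 19.2 FPKM under MEK1-hi exosomes, which gives a log2 fold change of 0.34 (per the authors' deposited table, p = 0.111, q = 0.824). Pdk1 made up 53.4% of the summed PDH kinase transcripts under MEK1-low and 61.7% under MEK1-hi exosomes, and Pdk3 made up 33.7% and 28.7%.

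**Figure D2:**
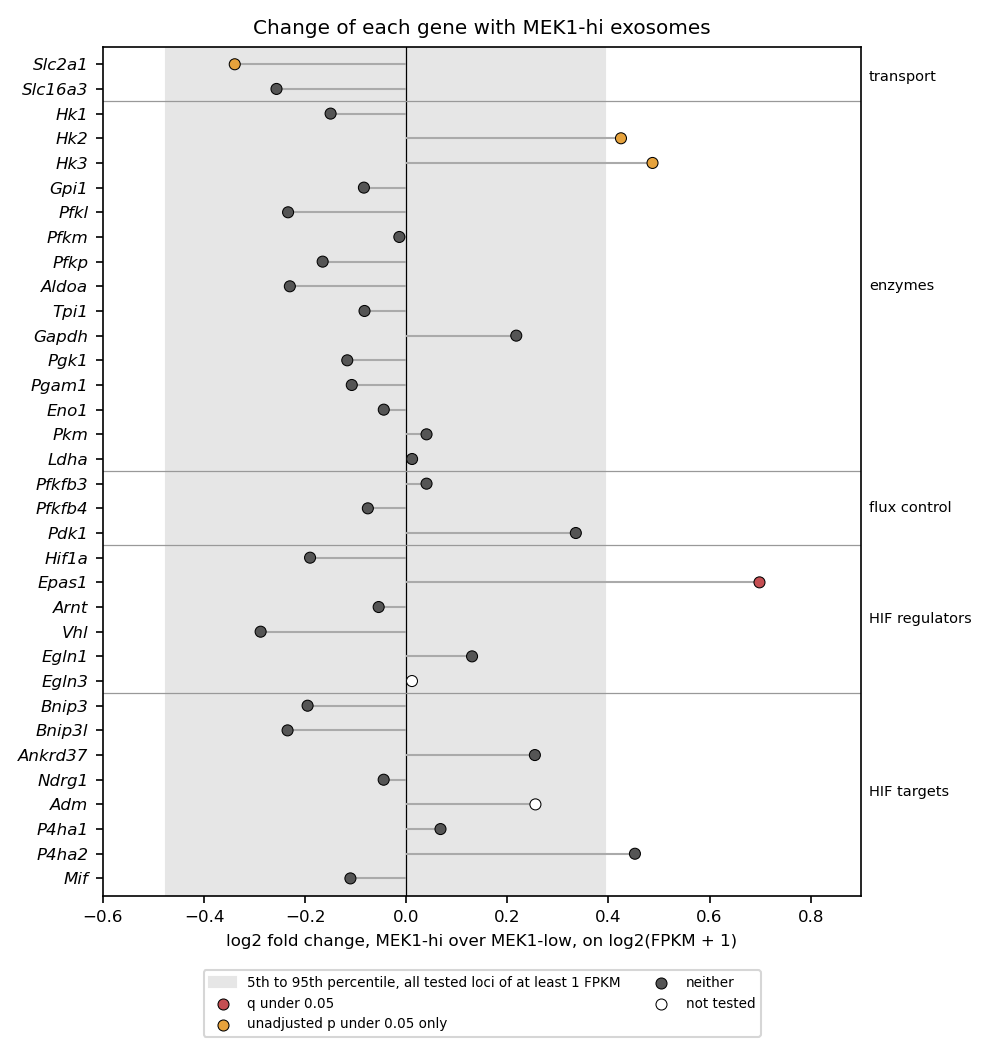
Log2 fold change of each gene (MEK1-hi over MEK1-low, on log2(FPKM + 1)), coloured by the authors' test, over a grey band from the 5th to the 95th percentile of all tested loci of at least 1 FPKM, -0.47 to 0.39. Epas1, Hk3, P4ha2 and Hk2 lie to the right of the band, and none of the genes lies to its left.

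Among the regulators of HIF, Epas1 rose and the others were not called. Epas1, which encodes HIF-2 alpha (chromosome 17, 86753700 to 86833410, mm10), stood at 0.539 FPKM under MEK1-low and 1.497 FPKM under MEK1-hi exosomes. The ratio of these values was 2.78, the log2 fold change 0.70 and, without the added 1 FPKM, 1.48. The p-value was 0.0003 and the q-value 0.0157 in the authors' deposited table. The call was lost when only loci of at least 5 FPKM were adjusted, which leaves Epas1 out, and when the test statistic had to reach 2 in size, that of Epas1 being 1.93 in the authors' deposited table. Epas1 is known to be abundant in endothelial cells, and of the 5 endothelial markers Tek was listed at 0 in both groups, Kdr stood at 0.618 and 0.695 FPKM, Pecam1 at 0.824 and 0.400 FPKM, Cdh5 at 0.180 and 0.106 FPKM and Vwf at 2.89 and 2.00 FPKM. Of these markers 3 were tested and none was called by Cuffdiff, against 2.44% of all tested loci. None of the 3 had an unadjusted p under 0.05, where all tested loci gave 3.53% higher and 5.12% lower. The part of endothelial cells in the Epas1 value was not tested.

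Hif1a, which encodes HIF-1 alpha, was the more abundant alpha subunit gene by far, at 43.4 FPKM under MEK1-low and 37.9 FPKM under MEK1-hi exosomes (per the authors' deposited table, p = 0.259, q = 0.999). Its locus also joins Snapc1 and Gm49321, so the value is not that of Hif1a alone. Of the sum of both alpha subunit genes, Epas1 made up 1.23% under MEK1-low and 3.80% under MEK1-hi exosomes. Arnt, the shared partner, stood at 16.4 and 15.7 FPKM, and Vhl at 18.03 and 14.6 FPKM (per the authors' deposited table, p = 0.145, q = 0.890). Egln1, which encodes the main oxygen sensor PHD2, stood at 10.2 and 11.2 FPKM. Egln3, which is itself a HIF target, stood at 0.380 and 0.391 FPKM and was not tested. With Egln2, at 27.4 and 26.4 FPKM, the 3 hydroxylase genes summed to 38.0 FPKM in each group, and Egln2 made up 72.1% and 69.4% of that sum.

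**Figure D3:**
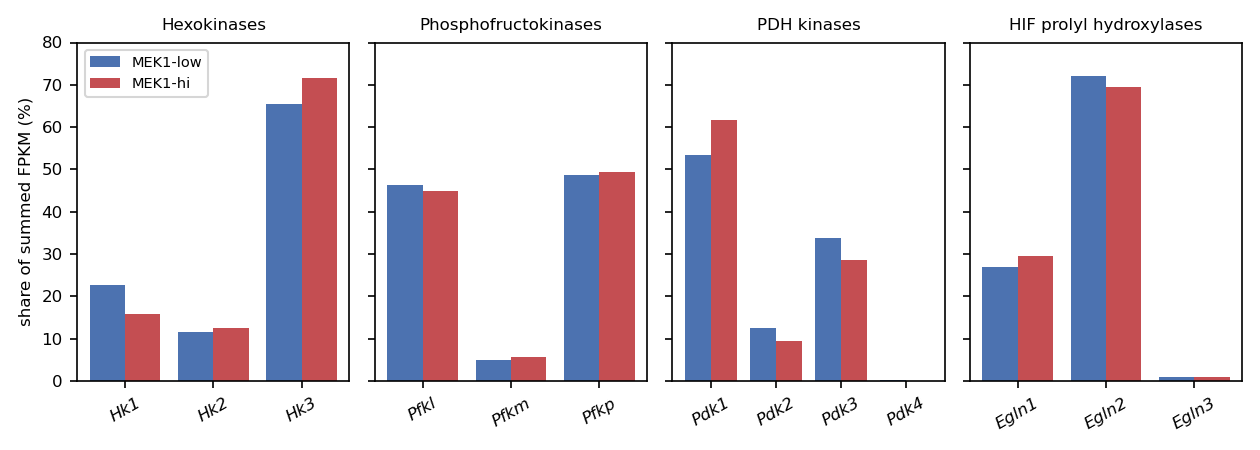
Share of each gene in the summed FPKM of its family, in percent, for hexokinases, phosphofructokinases, pyruvate dehydrogenase (PDH) kinases and HIF prolyl hydroxylases, with blue bars for MEK1-low and red bars for MEK1-hi. Hk3, at 65.5% and 71.7%, and Egln2, at 72.1% and 69.4%, lead their families in both groups.

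None of the 7 tested HIF target genes was called by Cuffdiff, where 2.44% of all tested loci were called in either direction. With so few genes, a count of none is near that share. None of the 7 had an unadjusted p under 0.05, where all tested loci gave 3.53% higher and 5.12% lower. Values were lower for 4 and higher for 3, against 49.8% and 50.2% of all tested loci. Bnip3 and Bnip3l, which encode receptors for the removal of mitochondria by autophagy, had levels of 7.24 and 6.20 FPKM (Bnip3) and of 33.7 and 28.5 FPKM (Bnip3l). P4ha1 and P4ha2, subunits of the collagen prolyl hydroxylase, had levels of 29.1 and 30.5 FPKM (P4ha1) and of 2.88 and 4.31 FPKM (P4ha2). P4ha2 had the largest log2 fold change of the targets of at least 1 FPKM, 0.45, with a p-value of 0.0919 and a q-value of 0.763 in the authors' deposited table. Mif, a cytokine that macrophages also secrete, stood at 63.2 and 58.5 FPKM, and Ndrg1, a stress-induced gene, at 3.69 and 3.54 FPKM. Ankrd37, an ankyrin repeat gene, stood at 0.660 and 0.981 FPKM (per the authors' deposited table, q = 0.999). Adm, which encodes the vasodilator peptide adrenomedullin, stood at 0.0264 and 0.225 FPKM and was not tested; its MEK1-low value is the lowest of the 34 genes.

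Several of these genes have near-identical copies elsewhere in the genome, and the deposited levels of gene and copy cannot be fully separated. A copy was counted where a GENCODE M21 transcript of another locus matched at least 90% of the coding sequence at 95% identity or more. Such copies were found for 9 of the 34 genes. Pgam1 stood at 47.8 and 44.3 FPKM while its copy Pgam1-ps2 was listed at 248 and 240 FPKM. Eno1 had 3 copies that summed to 205 and 181 FPKM, of which Gm4735 was listed at 144 and 122 FPKM and Eno1b at 60.8 and 59.0 FPKM. Mif had 3 copies that summed to 99.0 and 93.0 FPKM, more than Mif itself. Pkm had the copy Gm6560 at 326 and 340 FPKM, and Ldha had 2 copies that summed to 28.3 and 31.1 FPKM. Gapdh had 64 copies, which together held 9.11 and 10.3 FPKM, and Pgk1 had 2 copies at 0 in both groups. Also with copies added, Gapdh and Pgk1 stood below Tpi1 and Aldoa of the same pathway, and the reason was not tested.

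With copies added to their genes, the log2 fold change of Pgam1 went from -0.11 to -0.06 and that of Eno1 from -0.04 to -0.14, and the sign of the change was the same for all 9 genes. Bnip3l moved the most in the direction away from 0, from -0.23 to -0.36. Its copy Bnip3l-ps was listed at 32.2 FPKM under MEK1-low and 22.6 FPKM under MEK1-hi exosomes (per the authors' deposited table, p = 0.0031, q = 0.0998). Bnip3 moved towards 0, from -0.20 to -0.07. The median log2 fold change of the enzyme genes was -0.08 with and without copies.

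**Figure D4:**
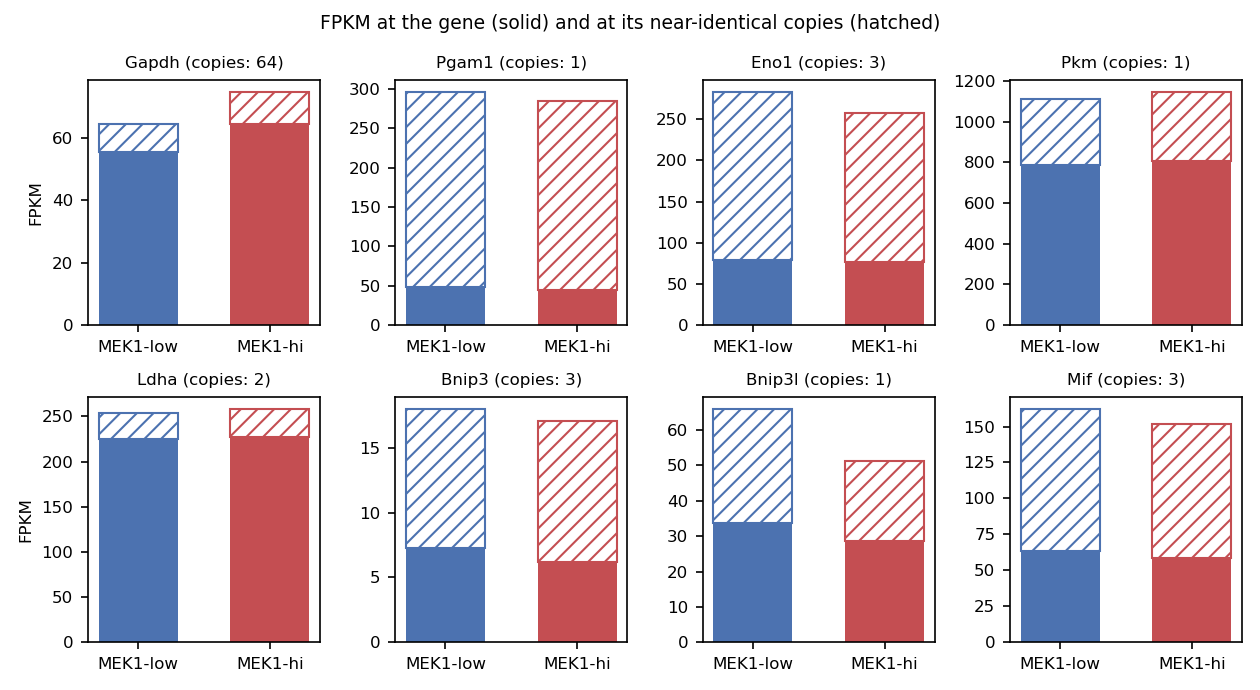
FPKM at each of 8 genes (solid) and summed over the loci of its near-identical copies (hatched), for the MEK1-low and MEK1-hi groups, each panel on its own axis from 0. For Pgam1, Eno1, Bnip3 and Mif the copies held more of the sum than the gene did in both groups.

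Genes of neighbouring pathways that were called had all fallen. Calls in the whole data leaned the same way. Of the 309 loci called, 214 were lower (1.69% of all tested loci) and 95 higher (0.751%). Of 30 tested further genes of glycolysis and pyruvate use, Slc2a6, which encodes GLUT6 of the glucose transporter family, fell from 8.96 to 3.50 FPKM (per the authors' deposited table, q = 0.00349), and 0 rose. Aldoc, another aldolase, stood at 3.93 and 2.07 FPKM and Pdp2, a phosphatase that opens pyruvate dehydrogenase, at 2.06 and 1.44 FPKM, and the authors' deposited table gives q-values of 0.221 and 0.289. Mpc2, of the mitochondrial pyruvate carrier, stood at 44.1 and 42.1 FPKM and Pdha1, of pyruvate dehydrogenase, at 33.0 and 33.7 FPKM. The hexose transporter genes Slc2a1, Slc2a3, Slc2a6 and Slc2a8 summed to 95.1 FPKM under MEK1-low and 74.8 FPKM under MEK1-hi exosomes, and Slc2a1 made up 82.0% and 82.1% of the sum. The list's median log2 fold change was -0.01, and 0.03 when groups were scaled to the same FPKM total, with 15 values higher and 15 lower.

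Of 13 tested genes of gluconeogenesis and glycogen, Pcx and Pygl fell and 0 rose, against 1.69% and 0.751% of all tested loci. Pcx, pyruvate carboxylase, fell from 4.37 to 1.15 FPKM, and Pygl, the glycogen phosphorylase of liver and leukocytes, fell from 27.0 to 18.6 FPKM (per the authors' deposited table, q = 0.00636 and 0.0258). Gyg, the primer protein of glycogen, stood at 24.2 and 31.5 FPKM (per the authors' deposited table, p = 0.0158, q = 0.295). Ugp2, which makes the sugar donor for glycogen, stood at 54.2 and 54.8 FPKM, and G6pc3, a glucose 6-phosphatase, at 29.0 and 27.6 FPKM. The median of this list was -0.01, and 0.02 when groups were scaled to the same FPKM total. None of the 11 pentose phosphate genes was called by Cuffdiff, against 2.44% of all tested loci. At an unadjusted p under 0.05, 1 was lower, where all tested loci gave 5.12% lower. Values were lower for 8 of the 11 and within 1.2-fold for 10, against 49.8% and 68.7% of all tested loci. Taldo1, transaldolase, stood at 1015 and 824 FPKM (per the authors' deposited table, p = 0.0460, q = 0.548) and Pgd, which makes NADPH, at 674 and 571 FPKM. The pathway's summed level was 2370 and 1999 FPKM, and its median log2 fold change was -0.12.

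Of 35 tested further HIF targets, 3 fell and 0 rose, where 1.69% of all tested loci were called lower and 0.751% higher. Values were lower for 22 and higher for 13, against 49.8% and 50.2% of all tested loci, and the median was -0.06. Glycolytic enzymes were placed in the other lists, so none of these further targets encodes one. Cxcr4, the receptor for the chemokine CXCL12, fell from 109 to 70.0 FPKM, Mt1, a metallothionein that metals also induce, from 250 to 167 FPKM, and Pnrc1, a coactivator of nuclear receptors, from 30.7 to 20.8 FPKM (per the authors' deposited table, q = 0.00636, 0.00887 and 0.0200). At an unadjusted p under 0.05, 8 were lower and 1 higher, where the shares over all tested loci were 5.12% and 3.53%. Lox, lysyl oxidase, stood at 1.29 and 0.684 FPKM, Bhlhe41, a transcriptional repressor, at 35.2 and 24.6 FPKM, and Plod1, a lysyl hydroxylase of collagen, at 38.2 and 50.3 FPKM, and the authors' deposited table gives q-values of 0.0695, 0.526 and 0.172. Hmox1, heme oxygenase, stood at 1855 and 1828 FPKM and Anxa2, an annexin, at 307 and 353 FPKM. Of 15 tested further HIF regulators none was called by Cuffdiff, against 2.44% of all tested loci. None of the 15 had an unadjusted p under 0.05, where all tested loci gave 3.53% higher and 5.12% lower. All 15 lay within 1.2-fold, against 68.7% of all tested loci. Elob, a partner of VHL, stood at 152 and 146 FPKM, and Rack1, which also binds HIF-1 alpha, at 591 and 651 FPKM in a locus joined with small RNA genes.

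**Figure D5:**
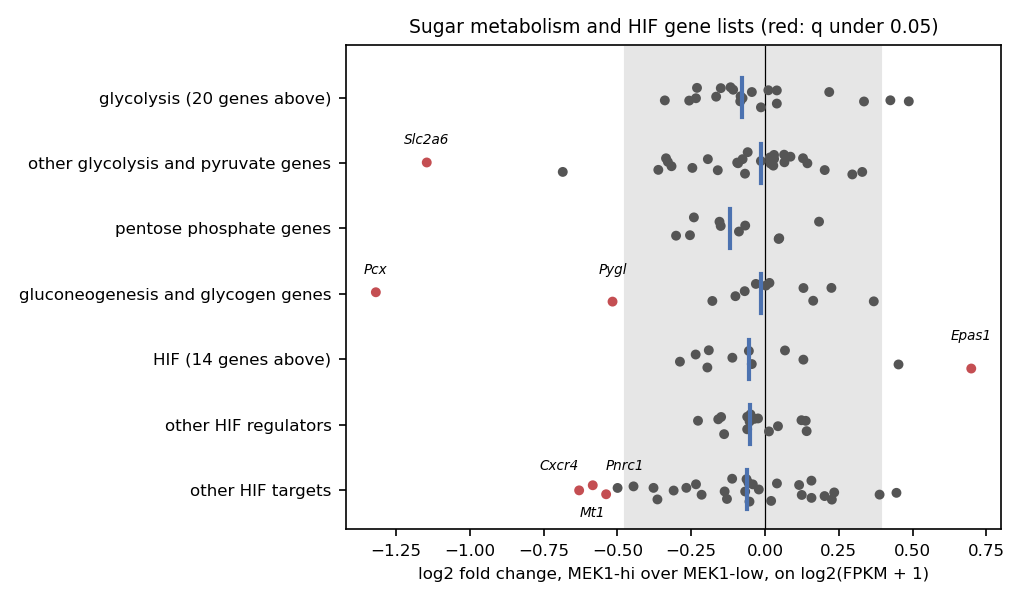
Log2 fold change (MEK1-hi over MEK1-low, on log2(FPKM + 1)) of each gene tested at 1 FPKM or more, by list, with the list's median as a blue bar, called genes in red and named, and the grey band from the 5th to the 95th percentile of all such loci. The medians lie between -0.12 and -0.01, and Epas1 is the called gene to the right of 0.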

How the data were processed

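RNA was measured in 4 samples, 2 per group. Per the labels' protocols, stranded mRNA libraries were made from 750 ng of RNA and read as pairs of 100 bases. Build mm10 and the programs TopHat, Cufflinks, Cuffdiff and FastQC 0.73 are named, without settings, per the submitters' processing notes. The file used is the authors' deposited Cuffdiff gene table, with 1 FPKM value per group and the authors' p-value, q-value and test statistic (a score) per locus, per the file headers. The table's GFP exo column was matched to MEK1-low through the treatment label, which carries GFP. Values per sample were not used here, so every test of a gene is the authors' own and p-values reflect at most variation among these samples, possibly technical. Depth per sample is unknown because FPKM values keep no counts, and their library normalization and use of strand are not given in the sources used here.

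Symbols came from GENCODE M21, which matched 99.5% of 55082 gene identifiers, and gene positions from the same annotation (mm10, counted from 1). A locus can join overlapping genes (863 of 12648 tested). Adjusting the deposited p-values over tested loci (Benjamini-Hochberg) gave the q-values back within 5.19e-07. Medians, on log2(FPKM + 1), used tested loci with at least 1 FPKM in a group. Copies were found with blastn 2.17.0, and other steps used Python 3.11.15 and pandas 2.3.3. Counting and adjustment were tested on simulated data. The members and lists were chosen with earlier results of these data known. Named were all 34 members and, from each further list, every called gene, up to 3 others at an unadjusted p under 0.05 and the 2 of highest level. Pfkfb1, Pfkfb2, Pdk3, Egln2, Slc2a3 and Slc2a8 were named outside that rule, as parts of a family's sum. Some cell markers and near-identical copies were named too. Alternatives changed the threshold, filter, pseudocount, scaling and treatment of joined loci, and, chosen after seeing the data, added near-identical copies. The 1.2-fold band and its alternatives were also chosen after values had been seen.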

Additional observations from a re-analysis of the deposited data

How the results depend on the processing

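The count of called genes among the 34 was 1 (Epas1) as reported, and was 1 when p-values were adjusted again over loci of at least 1 FPKM and with joined loci left out. It was 2 at a q-value under 0.10, where Hk3 joined and the count among the glycolytic enzymes went from 0 to 1. It was 0, and 0 among the HIF regulators, when the test statistic had to reach 2 in size and when p-values were adjusted again over loci of at least 5 FPKM, which leaves out Epas1. Adjusted again over loci of at least 5 FPKM, the gluconeogenesis and glycogen list kept 1 call in place of 2, since Pcx lies below that level. The log2 ratio of the summed enzyme levels was -0.08 as reported and 0.028 without Aldoa. Medians of the 34 genes, of their groups and of the further lists moved by less than 0.1 under every pseudocount, filter, scaling, joined-locus and copy setting run, but some turned sign. The median of the HIF regulators went from -0.05 to 0.04 with joined loci left out, and that of the HIF targets from -0.08 to 0.01 with no filter on low values. That of the further glycolysis and pyruvate genes went from -0.01 to 0.02 at 5 FPKM or more and to as high as 0.03 with groups scaled to the same FPKM total or by the upper quartile, and that of the gluconeogenesis and glycogen genes from -0.01 to 0.0031 and to as high as 0.02 under the same settings. A move of 0.1 was the limit set, because 1 value per group gives no spread between samples. Of the 34 single genes, 1 (Pfkm) changed sign under a planned pseudocount or scaling. Log2 fold changes of some low genes moved by more than 0.1 without the added 1 FPKM. That of P4ha2 went from 0.45 to 0.58, that of Ankrd37 from 0.25 to 0.57 and that of Epas1 from 0.70 to 1.48. That of Adm, which was not tested, went from 0.26 to 3.09. Bands of 1.1-fold and 1.5-fold, chosen after seeing the data, held 14 and 31 of the 32 tested genes (43.8% and 96.9%), against 44.7% and 88.9% of all tested loci, where the 1.2-fold band held 23. No replicate could be left out in turn, since no value belongs to a single sample. No paired analysis was possible because the table holds 1 value per group. The absence of values per sample limits every comparison.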
